A study of Mus musculus with 58 samples.

Results

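Primary mouse microglia given tau fibrils were compared with microglia that carry a constitutively active form of IKKβ, to find the parts of the tau response that active IKKβ does not reproduce and the reverse. The 18 libraries of these 2 experiments were taken from the 58 samples of the series by their labels, and they were fitted together. In the first experiment, wild-type microglia received full-length tau fibrils at 2 µg/ml for 24 h (4 libraries) or vehicle (4 libraries). In the second, 5 libraries labelled IkbkbCA and 5 labelled IkbkbWT were made from microglia for which the labels list no treatment. All cells were grown from the cortex and hippocampus of newborn pups, whose sex the labels do not give. The study's methods place the active kinase behind a floxed stop in the Rosa26 locus (IkbkbCA F/F) and describe IkbkbCA microglia as Cx3cr1 CreERT2/+ cells, in which Cre removes the stop after 4-hydroxytamoxifen. Littermates without Cre, IkbkbWT, received 4-hydroxytamoxifen as well, so the Cre knock-in and the loss of 1 Cx3cr1 allele go with the active kinase and cannot be told apart from it. Cells of the first experiment were plated before the fibrils were added, and each experiment has its own controls. Nothing in the labels says that the samples of a group came from separate cultures or litters, so p-values measure the spread between these samples, which may be technical.

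IKKβ, the product of Ikbkb, phosphorylates the IκB proteins that hold NF-κB in the cytoplasm. Their loss frees RelA, p50 and c-Rel, which bind κB sites and switch on cytokines, survival genes and the inhibitors that end the signal. Type I interferon acts through a separate route, in which a complex that holds STAT2 and IRF9 binds interferon-stimulated response elements. In microglia, the resident macrophages of the brain, both routes respond to pathogens and to protein aggregates.

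For each gene 3 quantities are given on the log2 scale. The tau effect is tau fibrils against vehicle, the IkbkbCA effect is IkbkbCA against IkbkbWT, and the difference is the tau effect minus the IkbkbCA effect, so that a positive difference is a larger rise or a smaller fall with tau. Levels are counts scaled to the normalised library size (CPM) from 3′ tag libraries, whose counts do not grow with gene length. Genes were called at a Benjamini-Hochberg FDR under 0.05 in edgeR's quasi-likelihood test, and single values are given for the libraries in the order of their replicate numbers.

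Several properties of the libraries moved with the groups. Total counts were 1752025 to 2731230 with tau fibrils, 1672052 to 4640645 with vehicle, 3875467 to 7191603 in IkbkbCA and 4963353 to 8349128 in IkbkbWT. The summed level of 15 microglial markers was 14996 to 17579.9 CPM with tau fibrils and 7605 to 10503 CPM with vehicle, while 10 astrocyte markers summed to 678 to 753 and 1332 to 1409.7 CPM, 12 neuronal markers to 245 to 310.0 and 521 to 625 CPM, and 12 fibroblast and vessel markers to 181 to 195 and 473 to 632 CPM. In IkbkbCA and IkbkbWT the microglial markers summed to 19600 to 29003 and 17856 to 23039.8 CPM, and the astrocyte markers to 85.8 to 312 and 55.3 to 914 CPM. Sums of 12 oligodendrocyte lineage markers ranged from 543 to 6013 CPM in IkbkbWT and from 831 to 2165 CPM in IkbkbCA. Vehicle libraries held 726 to 896 CPM of these markers, and tau-stimulated libraries 438 to 489 CPM. Their difference was called negative for 4 of the 12, against 3.55% of all genes, and positive for 0. In such bulk samples fewer cells of a type and less RNA per cell cannot be told apart. The microglial marker P2ry12 was detected in every library, and it lay at 4.14 to 9.50 CPM in the tau experiment and at 31.3 to 107 CPM in the other. Ikbkb itself was at 56.3, 60.7, 56.7, 44.9 and 46.9 CPM in IkbkbCA and 46.3, 59.4, 41.3, 44.1 and 45.2 CPM in IkbkbWT (IkbkbCA effect 0.17, edgeR FDR = 0.47). A 3′ tag of the endogenous gene need not register the Rosa26 copy, so this does not check the labels. The fall of Cx3cr1 in every IkbkbCA library, described below, goes with the knock-in. IkbkbCA replicate 3 stood apart from the other 4, being the highest IkbkbCA library for 435 and the lowest for 534 of the 1436 genes called in the IkbkbCA effect.

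Of 12841 genes tested, 2715 (21.1%) were called in the tau effect, 1359 higher (10.6%) and 1356 lower (10.6%). In the IkbkbCA effect 1436 (11.2%) were called, 772 higher (6.01%) and 664 lower (5.17%). The difference was called for 1209 genes (9.42%), and it was positive for 753 (5.86%) and negative for 456 (3.55%). Of the 1359 genes that rose with tau, 453 also rose in IkbkbCA, 65 fell there and 841 were not called there. For 395 of these 841 the difference was called too, and for 446 it was not, so that the latter cannot be assigned to tau alone. Among the 1356 genes that fell with tau, 165 also fell in IkbkbCA, 20 rose there and 1171 were not called, 293 of them with a called difference. The share of higher genes among those called in IkbkbCA was 53.8%, and when libraries were scaled by their totals alone it was 41.5% (668 of 1608). For tau it was 50.1%, and 40.6% with that scaling. Without IkbkbCA replicate 3, 1358 genes were called in IkbkbCA and 1349 in the difference, 914 positive and 435 negative. The IkbkbCA and IkbkbWT libraries fell into 3 sets of replicate numbers (1 with 2, 3 alone, 4 with 5) that deviated together, with a correlation of their residuals within a set of 0.36 to 0.64, and with these sets as a covariate 2179 differences were called, 1072 positive and 1107 negative. The sets were read from the residuals of these same libraries and hold no library of the tau experiment. With this covariate the calls in the tau effect also rose, from 2715 to 3931. Calls gained with it, here and below, therefore describe that fit and are not independent evidence.

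Combining the 3 tests gave 6 classes. Tau-only genes (688, 5.36% of genes tested) were called in the tau effect and in the difference but not in IkbkbCA, 395 rising (3.08%) and 293 falling (2.28%). Tau-larger genes (137, 1.07%) moved the same way in both with a larger tau effect, 131 rising (1.02%) and 6 falling (0.0467%). Shared genes (471, 3.67%) moved the same way with no called difference, 315 rising (2.45%) and 156 falling (1.21%). CA-larger genes (10, 0.0779%) had a larger IkbkbCA effect, 7 rising (0.0545%) and 3 falling (0.0234%). CA-only genes (197, 1.53%) were called in IkbkbCA and in the difference but not with tau, 89 rising (0.693%) and 108 falling (0.841%). In 85 genes (0.662%) the effects were called in opposite directions, 65 rising with tau and falling in IkbkbCA (0.506%) and 20 the reverse (0.156%). Class membership fixes the direction of these effects, so the values below describe the classes and do not test them.

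**Figure D1:**
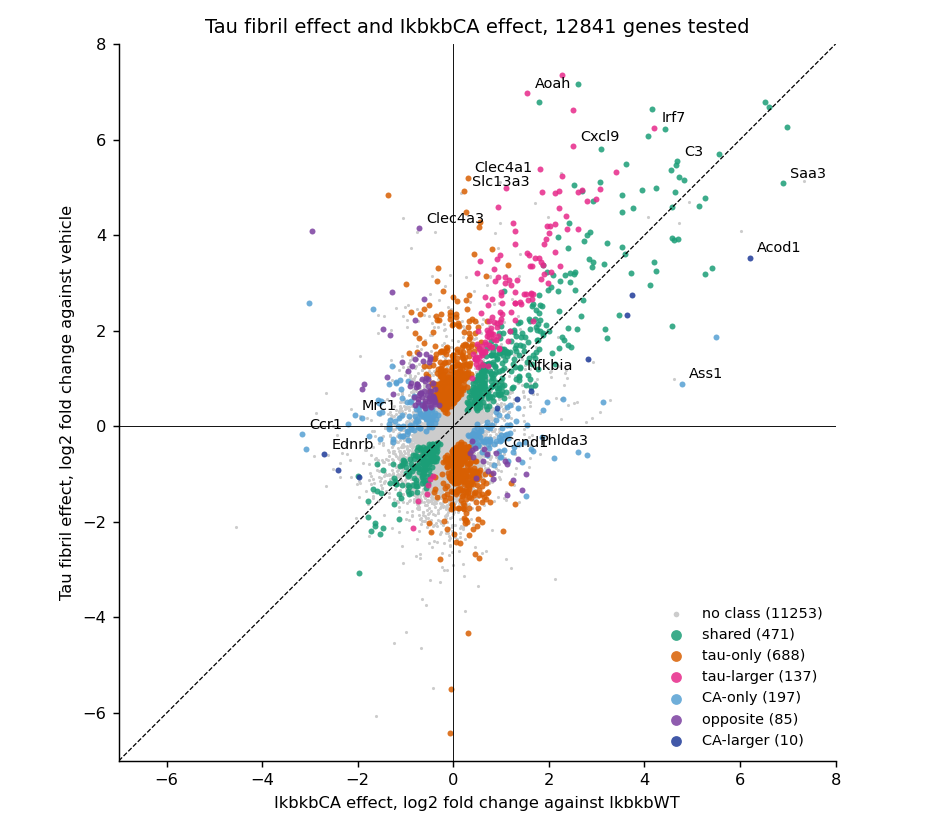
Each point is 1 of 12841 genes, with the log2 fold change of IkbkbCA against IkbkbWT (5 libraries each) on the horizontal axis and of tau fibrils against vehicle (4 libraries each) on the vertical axis. Colours give the 6 classes, grey points belong to none, and equal effects lie on the dashed line. Clec4a1 and Slc13a3 lie near 0 on the horizontal axis, Acod1 and Ass1 lie below the dashed line, and Saa3 and C3 are high on both axes.

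Baselines of the experiments differed in a way that moved with these classes. Among all genes tested, IkbkbWT had a higher mean than vehicle in 6416, or 49.965%. Among tau-only risers this held for 373 of 395 (94.4%), and among tau-larger risers for 124 of 131 (94.7%), against 229 of 315 shared risers (72.7%). The median tau-only riser had 67.8 CPM with tau fibrils, 35.0 with vehicle, 63.8 in IkbkbCA and 65.8 in IkbkbWT. The vehicle libraries enter both the class and this comparison, so part of the shift is built in, and what sets the 2 control groups apart cannot be told apart from the experiment.

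Promoters of 1 gene from each of 4 rising classes are shown to give the searched letters in their place. Genes were taken down the ranking of each class, by size of effect, until a promoter held the letters. That was at rank 7 of 325 eligible genes for Mndal, 3 of 224 for Marco, 33 of 73 for Traf3 and 1 of 107 for Aoah. The genes shown therefore do not represent their classes. Aoah was chosen after the shares of motifs were seen. Each runs 5′ to 3′ from 250 bases before to 50 bases after a RefSeq transcript start on GRCm38.p6. Capitals mark the letters of the interferon-stimulated response element (GAAA, any 2 bases, GAAA) in Aoah and Mndal, and of a κB site (GGG, any 2 bases, TTTCC) in Marco and Traf3, each searched on both strands. Aoah (tau-larger) is at chr13:20793863-20794162 on the plus strand, Mndal (tau-only) at chr1:173880138-173880437 on the minus strand, Marco (shared) at chr1:120504975-120505274 on the minus strand and Traf3 (CA-only) at chr12:111166120-111166419 on the plus strand.
Aoah: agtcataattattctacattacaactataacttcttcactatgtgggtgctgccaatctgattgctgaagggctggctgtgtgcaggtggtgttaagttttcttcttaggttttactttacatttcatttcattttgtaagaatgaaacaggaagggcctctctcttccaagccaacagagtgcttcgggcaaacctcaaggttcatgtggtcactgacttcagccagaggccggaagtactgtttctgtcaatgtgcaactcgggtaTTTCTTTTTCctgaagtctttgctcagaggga
Mndal: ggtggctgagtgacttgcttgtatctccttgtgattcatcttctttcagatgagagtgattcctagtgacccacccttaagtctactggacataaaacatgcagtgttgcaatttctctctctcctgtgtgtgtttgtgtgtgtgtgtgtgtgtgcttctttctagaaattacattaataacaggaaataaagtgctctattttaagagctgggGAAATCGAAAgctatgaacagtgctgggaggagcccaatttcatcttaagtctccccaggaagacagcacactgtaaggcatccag
Marco: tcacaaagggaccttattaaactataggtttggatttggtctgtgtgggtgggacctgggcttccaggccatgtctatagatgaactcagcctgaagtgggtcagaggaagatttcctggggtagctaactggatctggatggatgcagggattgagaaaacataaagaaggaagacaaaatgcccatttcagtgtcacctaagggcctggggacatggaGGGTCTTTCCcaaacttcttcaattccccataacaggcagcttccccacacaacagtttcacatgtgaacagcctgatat
Traf3: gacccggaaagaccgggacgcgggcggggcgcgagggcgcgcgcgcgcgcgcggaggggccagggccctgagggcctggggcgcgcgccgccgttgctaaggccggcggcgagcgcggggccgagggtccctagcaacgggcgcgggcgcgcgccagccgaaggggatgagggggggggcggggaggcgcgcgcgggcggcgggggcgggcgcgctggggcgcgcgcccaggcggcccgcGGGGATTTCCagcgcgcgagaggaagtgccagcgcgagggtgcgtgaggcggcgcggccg

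Promoter sequences matched 9844 of the 12841 genes tested (76.7%), 386 of which (3.92%) held the response element and 191 (1.94%) the κB letters. Of all 32851 promoter windows of this length, 3.44% held the first and 1.63% the second. Matches were found for 260 of the 315 shared risers (82.5%), of which 44 (16.9%) held the response element and 18 (6.92%) the κB letters. Among CA-only risers, 73 of 89 matched (82.0%), and 3 (4.11%) and 2 (2.74%) held them. Fewer than 80% of all genes tested, of tau-larger risers (101 of 131) and of tau-only risers (310 of 395) had a promoter, so a comparison of classes on this property is void, and the counts describe the matched genes. They were 29 with the response element and 4 with the κB letters among tau-larger risers, and 16 and 9 among tau-only risers. A match is a description of letters and not a binding site.

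Interferon genes rose in both experiments, and for a number of them that depended on the test the rise was larger with tau fibrils. All 38 genes of the type I interferon response list rose with tau and 37 rose in IkbkbCA, against 10.6% and 6.01% of all genes. The difference was called for 20, all positive, against 5.86% of all genes, and by limma-voom it was called for 11. In this list 19 genes were tau-larger, 18 shared and 1, Trim25, a ubiquitin ligase of RNA sensing, tau-only. The median effects were 3.99 and 2.46, or 3.65 for tau with the 6 genes at or under 3 counts in a whole group set to their bounds, and the median difference was 1.51 (1.28 with bounds), against -0.06 over all genes.

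Oas2, which makes the 2′-5′ oligoadenylates that activate RNase L, had the largest fitted difference of the list. It lay at 11.5, 7.77, 8.35 and 21.5 CPM with tau fibrils, 0, 0.207, 0 and 0 with vehicle, 31.3, 24.3, 17.9, 25.8 and 22.6 in IkbkbCA and 4.46, 3.51, 8.69, 3.81 and 1.5 in IkbkbWT. The groups did not overlap within either experiment, and the difference was 4.13 ± 1.05 (SE, edgeR FDR = 0.016). Since every vehicle library had at most 3 counts, the rise with tau is only known to be at least 9.04-fold against a fitted 5.65-fold in IkbkbCA, so the size of the difference is not set by these counts. The mean level was higher in IkbkbCA (24.4 CPM) than with tau (12.3 CPM), and the call was lost with limma-voom. Irf7, the transcription factor that amplifies interferon genes, lay at 337, 346, 400.2 and 302 CPM with tau fibrils and 4.67, 4.14, 4.27 and 5.44 with vehicle. In IkbkbCA it was at 353, 320.2, 74.4, 294 and 299 CPM and in IkbkbWT at 14.4, 16.1, 19.7, 9.45 and 13.6. Replicate 3 was the low IkbkbCA value, and the difference was 2.05 ± 0.51 (SE, edgeR FDR = 0.015), not called with limma-voom. Isg15, a ubiquitin-like modifier, rose by 4.97 and 3.07 (difference 1.89 ± 0.51 (SE, edgeR FDR = 0.022), not called with limma-voom or without vehicle replicate 2, where it was 1.60). Ifit1, which binds foreign RNA caps, rose by 4.85 and 3.54 with no called difference (1.31 ± 0.55 (SE, edgeR FDR = 0.15), 95% confidence interval 0.16 to 2.46). Cxcl10, a T cell chemokine, had the opposite order, 2.33 and 3.47, and its difference was not called (-1.14 ± 0.55 (SE, edgeR FDR = 0.21), interval -2.28 to 0.00).

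Levels of the interferon list are given beside its effects. The mean of log2(CPM + 1) over the 38 genes was 6.12 to 6.26 in the tau-stimulated libraries and 5.08 to 6.25 in IkbkbCA, and the groups overlap. At baseline it was 2.44 to 2.94 with vehicle and 3.17 to 4.22 in IkbkbWT, and these do not overlap. In 32 of the 38 genes IkbkbWT had a higher mean than vehicle, and in 11 IkbkbCA had at least the tau level. Irf7, for one, had means of 346 CPM with tau fibrils, 4.63 with vehicle, 268 in IkbkbCA and 14.7 in IkbkbWT. The 2 experiments were separate, so a higher baseline in IkbkbWT cannot be told apart from other differences between them.

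**Figure D2:**
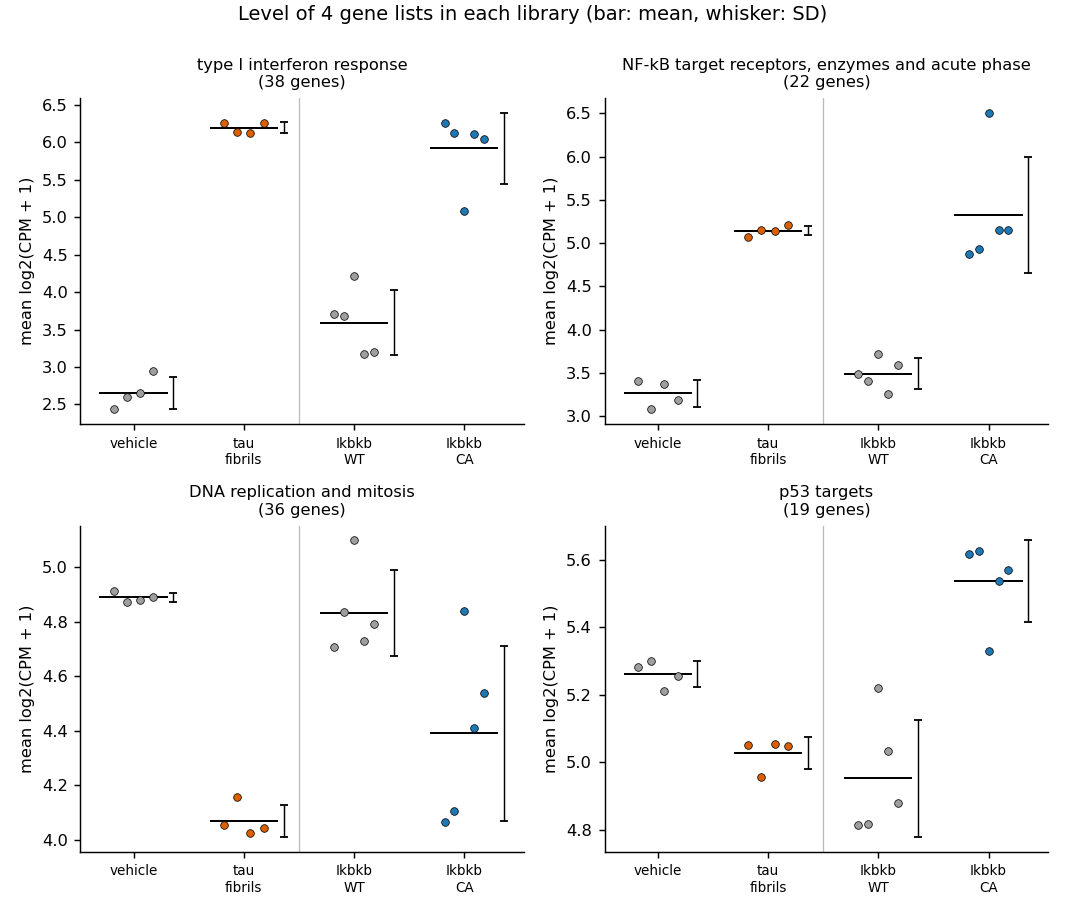
Each point is 1 library, and the vertical axis is the mean of log2(CPM + 1) over the tested genes of a list, with the bar at the group mean and the whisker showing the SD. Tau-stimulated and IkbkbCA libraries reach a similar interferon level from different baselines, 1 IkbkbCA library (replicate 3) is low for interferon genes and high for the NF-κB enzymes, and p53 targets are higher in IkbkbCA and lower with tau fibrils than in their controls.

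Further along the interferon route, 11 of 21 signalling factors tested had a positive difference, against 5.86% of all genes. In IkbkbCA 6 of the 21 rose by edgeR, against 6.01% of all genes, and 10 by limma-voom. Irf7, Stat2, Irf1 and Irf9 were among the tau-larger members, and the calls of Stat2 and Irf1 were lost with limma-voom. The tau-only members were Cgas and Tmem173, the sensor of cytosolic DNA and its adaptor STING, with Tyk2, Irf2 and the receptor chains Ifngr1 and Ifngr2, of which Ifngr2 was called in IkbkbCA too with the 3 sets as a covariate (edgeR FDR = 0.026). Tmem173 rose by 1.39 with tau and by -0.00 in IkbkbCA (difference 1.40 ± 0.29 (SE, edgeR FDR = 0.0045)), with means of 48.4 CPM with tau fibrils, 18.1 with vehicle, 82.0 in IkbkbCA and 82.3 in IkbkbWT. Its level with tau thus stayed below that of both Ikbkb groups. Of the 13 guanylate-binding proteins and related genes tested, 12 rose with tau (10.6% of all genes), 13 in IkbkbCA (6.01%), and 6 had a positive difference (5.86%). The largest was that of Cxcl9, a chemokine of the type II interferon response, at 50.6, 44.4, 45.6 and 46.0 CPM with tau fibrils, 1.17, 0.621, 0.950 and 0.544 with vehicle, 3.81, 2.53, 0.746, 1.53 and 1.51 in IkbkbCA and 0.496, 0.826, 0.193, 0.332 and 0 in IkbkbWT. Its level was highest with tau in absolute terms as well, and the difference was 3.35 ± 0.86 (SE, edgeR FDR = 0.017), not called without IkbkbWT replicate 2, where it was 2.95. Gbp9, a guanylate-binding GTPase, rose by 4.26 and 1.25 (difference 3.02 ± 0.73 (SE, edgeR FDR = 0.012)), and was not called with limma-voom or without vehicle replicate 2, where it was 2.47. MHC class I presentation rose in both, with 14 of 18 genes rising in each, 6 positive differences and 1 negative. Of all genes 10.6% rose with tau, 6.01% rose in IkbkbCA, and 5.86% and 3.55% had a positive and a negative difference. The 1 negative difference is thus near the background. The immunoproteasome genes Psmb8, Psmb9 and Psmb10 and the class I light chain B2m were tau-larger, with a difference of 1.75 ± 0.37 (SE, edgeR FDR = 0.0047) for Psmb9 and 1.30 ± 0.24 (SE, edgeR FDR = 0.0013) for B2m. H2-Q6, a class Ib heavy chain, had the negative one, -3.63 ± 1.04 (SE, edgeR FDR = 0.031), not called without tau fibrils replicate 3 or without tau fibrils replicate 4 or without vehicle replicate 2 or without IkbkbWT replicate 1, where it was -3.37 to -1.83. It lay at 8.31, 7.59, 7.46, 8.09 and 4.26 CPM in IkbkbCA and 2.88, 4.75, 1.52 and 1.02 with tau. Class I heavy chain genes are near-identical copies, so its reads may be shared with neighbours.

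NF-κB subunits, inhibitors and targets held more shared genes than genes of any other class. Over the 67 tested genes of the 5 lists of subunits, inhibitors, cytokines, survival genes and receptors or enzymes, 38 rose and 1 fell with tau, 32 rose and 2 fell in IkbkbCA, and the difference was positive for 10 and negative for 3. Over all genes 10.6% rose with tau and 6.01% in IkbkbCA, and 5.86% and 3.55% had a positive and a negative difference, so the last 2 counts are nearer to the background than the rises. In 20 of the 67 both effects were called in the same direction with no called difference, and 6 were tau-only. Nfkbia, which encodes the inhibitor IκBα and is itself a target of NF-κB, lay at 591, 647, 658 and 648 CPM with tau fibrils and 326, 331, 276 and 287 with vehicle. In IkbkbCA it was at 886, 934, 1317, 799.9 and 817 CPM and in IkbkbWT at 382, 391, 341, 342 and 371. Neither pair of groups overlapped, and the difference of -0.32 ± 0.17 (SE, edgeR FDR = 0.28) had a 95% confidence interval of -0.68 to 0.04. Relb, the non-canonical subunit, rose by 1.55 and 1.73, Birc3, an inhibitor of apoptosis, by 1.87 and 1.51, and Tnfaip3, the deubiquitinase A20, by 2.17 and 1.35. Intervals of the differences were -0.62 to 0.26, -0.15 to 0.87 and -0.26 to 1.90, and none of these differences was called.

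By the smaller of the fitted effects the leading shared risers were Ly6i, Cxcl13, Marco and Saa3, and C3 is given beside them. C3, the central complement component, lay at 557, 634, 654 and 460.0 CPM with tau fibrils, 14, 9.11, 16.6 and 10.9 with vehicle, 349, 294, 432, 235 and 185 in IkbkbCA and 6.28, 7.43, 31.1, 7.30 and 7.16 in IkbkbWT. It rose by 5.55 and 4.68, and the difference was 0.87 ± 0.55 (SE, edgeR FDR = 0.36). Saa3, an acute phase apolipoprotein, lay at 2933, 3381, 3079 and 2467 CPM with tau fibrils and 113, 79.1, 104 and 52.3 with vehicle, and at 926, 1116, 25068, 1666 and 1781 CPM in IkbkbCA and 44.6, 50.1, 99.6, 27.7 and 34.5 in IkbkbWT. Of the IkbkbCA libraries, replicate 3 was far above the others, and the difference of -1.81 ± 1.05 (SE, edgeR FDR = 0.31) was not called. Marco, a scavenger receptor whose promoter is printed above, lay at 286, 337, 271 and 216 CPM with tau fibrils and 5.84, 3.31, 2.85 and 2.72 with vehicle. In IkbkbCA it was at 12.1, 18.7, 1107, 36.1 and 28.1 CPM and in IkbkbWT at 1.98, 1.86, 2.51, 1.16 and 1.96. Here 1 library decides the value, since the difference was -0.70 ± 1.97 (SE, edgeR FDR = 0.87) with all libraries and 2.68 without IkbkbCA replicate 3. Ly6i, a Ly6 surface antigen, rose to 25.3, 22.9, 25.8 and 15.8 CPM with tau fibrils and 19.2, 17.5, 28.1, 14.2 and 15.1 in IkbkbCA from at most 3 counts in each control, at least 16.5-fold and at least 37.1-fold. Cxcl13, a B cell chemokine, had bounds of at least 2.40-fold with tau and at least 28.4-fold in IkbkbCA, and the latter was at least 10.4-fold without IkbkbCA replicate 3. Il1b rose by 3.21 and 2.45 (difference 0.77 ± 0.56 (SE, edgeR FDR = 0.44)), and Ccl5, at 3336, 3589, 3517 and 2918 CPM with tau fibrils but only 95.9, 87.8, 33.0, 41.0 and 39.9 in IkbkbCA, by 6.22 and 4.43 (difference 1.79 ± 0.57 (SE, edgeR FDR = 0.053)). With the 3 sets as a covariate the difference of Ccl5 was called (edgeR FDR = 0.0019).

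Some NF-κB genes rose with tau and were not called in IkbkbCA. Bcl3, an IκB-like coactivator, lay at 25.3, 25.9, 30.4 and 44.5 CPM with tau fibrils, 6.42, 4.76, 5.22 and 2.18 with vehicle, 36.9, 49.4, 59.7, 43.4 and 44.7 in IkbkbCA and 36.4, 35.3, 44.8, 39.8 and 29.5 in IkbkbWT. The tau level reached that of the Ikbkb libraries from a low vehicle level, and the difference was 2.41 ± 0.31 (SE, edgeR FDR = 4.9e-05). Rel, the c-Rel subunit, rose by 0.78 with tau and changed by -0.00 in IkbkbCA (difference 0.79 ± 0.22 (SE, edgeR FDR = 0.025)), not called without tau fibrils replicate 2, where it was 0.76. Cd40, the costimulatory receptor, had a difference of 2.72 ± 0.62 (SE, edgeR FDR = 0.0082), not called with limma-voom, and Tnfrsf1b, a TNF receptor, one of 1.23 ± 0.20 (SE, edgeR FDR = 4.8e-04). Ccl9, a chemokine of myeloid cells, lay at 125, 121, 136 and 142 CPM with tau fibrils, 35.0, 20.3, 20.9 and 31.6 with vehicle, 80.3, 71.2, 279, 116 and 111 in IkbkbCA and 169, 174, 140.3, 200.1 and 156 in IkbkbWT, with a difference of 2.67 ± 0.43 (SE, edgeR FDR = 3.8e-04). Except for replicate 3, every IkbkbCA library of Ccl9 lay below every IkbkbWT library. Its IkbkbCA effect was -1.15 (edgeR FDR = 7.5e-05) with replicates 1 and 2 of the Ikbkb groups alone. With replicates 4 and 5 alone it was -0.60 (edgeR FDR = 0.052). Whether Ccl9 was tau-only thus depended on the libraries used. Ccl3 rose by 0.98 with tau and fell by 0.53 in IkbkbCA, where replicate 3 was the low value. Nfkb2, the p100 subunit, was tau-larger (0.94 ± 0.22 (SE, edgeR FDR = 0.0097)), as were Nfkbiz, a nuclear IκB (1.1 ± 0.26 (SE, edgeR FDR = 0.0091)), and Icam1, the adhesion receptor (1.82 ± 0.36 (SE, edgeR FDR = 0.0027)). Tnf rose with tau by 2.03 (edgeR FDR = 8.2e-04) and was not called in IkbkbCA, but its difference of 1.26 ± 0.49 (SE, edgeR FDR = 0.12) was not called. With the 3 sets as a covariate Tnf was called in IkbkbCA (edgeR FDR = 0.015) and in the difference (edgeR FDR = 0.0099). Ccl2 and Traf1 were called in none of the 3 tests, and Nfkbie in the IkbkbCA effect alone (effects 1.01 and 2.37, difference -1.36 ± 0.45 (SE, edgeR FDR = 0.063)). The same covariate gave calls for Nfkbie in the tau effect (edgeR FDR = 0.022) and the difference (edgeR FDR = 0.024), for Traf1 in the tau effect (edgeR FDR = 0.0072) and the IkbkbCA effect (edgeR FDR = 0.0043), and for Tnfrsf1b in IkbkbCA (edgeR FDR = 0.041).

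**Figure D3:**
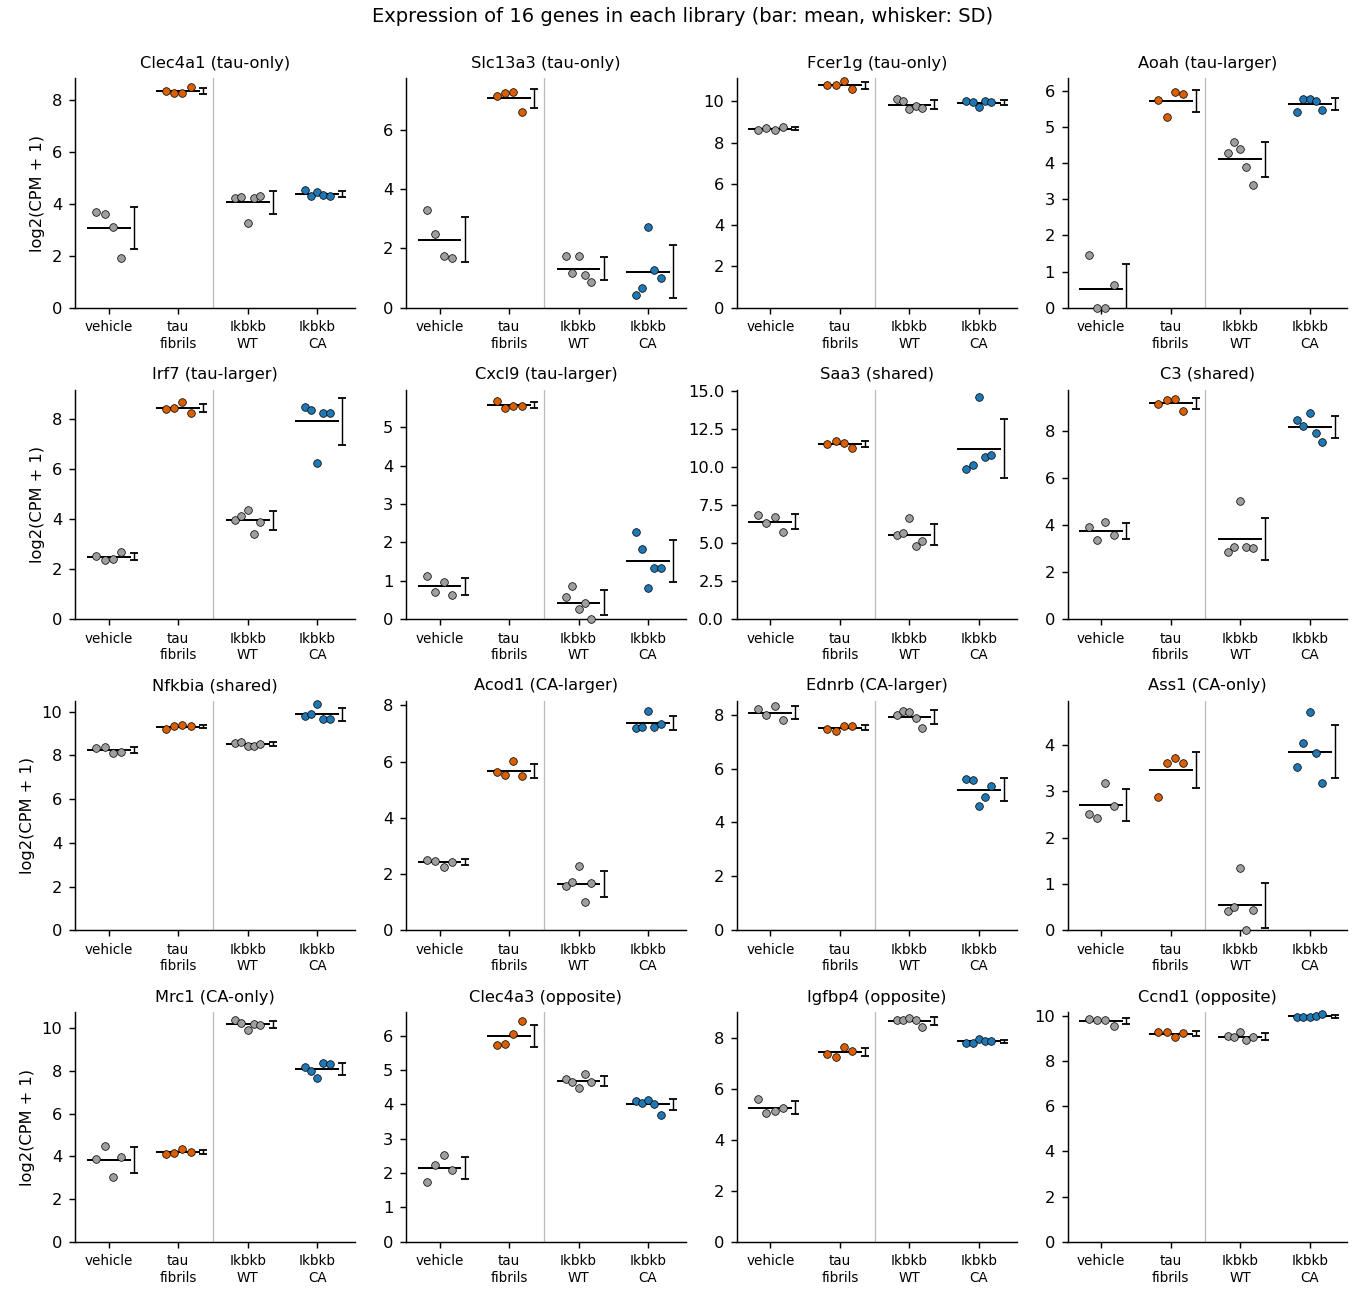
Each panel shows 1 gene, with log2(CPM + 1) on the vertical axis and 1 point per library for vehicle and tau fibrils (4 each) and IkbkbWT and IkbkbCA (5 each), where bars are means and whiskers SD. Clec4a1 and Slc13a3 rise with tau alone, Irf7 and Aoah end at similar levels from different baselines, Acod1 is highest in IkbkbCA, and Clec4a3, Igfbp4 and Ccnd1 move in opposite directions.

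Tau-only risers were led by C-type lectin receptors and a transporter. Clec4a1 (ENSMUSG00000049037, chr6:122921848-122934619), a receptor of the Dcir family, lay at 318, 302, 306 and 358 CPM with tau fibrils and 11.7, 11.2, 7.60 and 2.72 with vehicle. In IkbkbCA it was at 22.3, 18.5, 21.1, 19.2 and 18.6 CPM and in IkbkbWT at 17.9, 18.2, 8.49, 17.6 and 18.7, and those 2 groups were close. Its difference of 4.91 ± 0.32 (SE, edgeR FDR = 5.9e-09) was accompanied by a tau level far above all 10 Ikbkb libraries. Clec4a2 (Dcir1), an inhibitory receptor with an ITIM, had the same order of groups, with means of 102 CPM with tau fibrils, 4.66 with vehicle, 29.6 in IkbkbCA and 24.6 in IkbkbWT and a difference of 4.22 ± 0.33 (SE, edgeR FDR = 6.0e-08). Slc13a3, a sodium-coupled carrier of dicarboxylates, lay at 139, 148, 154 and 94.6 CPM with tau fibrils, 8.76, 4.55, 2.37 and 2.18 with vehicle, 0.346, 0.584, 5.59, 1.39 and 1.0 in IkbkbCA and 2.31, 1.24, 2.32, 1.16 and 0.809 in IkbkbWT (difference 4.69 ± 0.75 (SE, edgeR FDR = 4.0e-04)). Fgl2, a fibrinogen-like protein, followed with 3.62 ± 0.56 (SE, edgeR FDR = 2.8e-04). In all of these 4 leading genes the tau level exceeded every library of the other 3 groups. The median tau effect of the 395 tau-only risers was 0.91.

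Genes of complement and Fc receptors rose with tau in 15 of 19 and fell in 2, and in IkbkbCA 9 rose and 3 fell. The difference was positive for 8, where 5.86% of all genes had a positive difference, 10.6% rose with tau and 6.01% rose in IkbkbCA. The 2 falls with tau are at the background of 10.6%, and 5.17% of all genes fell in IkbkbCA. Fcer1g, the signalling chain of activating Fc receptors, lay at 1738, 1740.3, 2027 and 1531 CPM with tau fibrils, 391, 416, 388 and 427 with vehicle, 1031, 988, 843, 1042 and 984 in IkbkbCA and 1095, 1019.9, 786, 874 and 808 in IkbkbWT. Here too tau exceeded all other libraries, with a difference of 2.02 ± 0.16 (SE, edgeR FDR = 5.0e-08). Fcgr1, the high-affinity IgG receptor, rose by 3.11 and 0.93 (difference 2.18 ± 0.36 (SE, edgeR FDR = 5.6e-04)). Fcgr4 and C3ar1, the receptor of C3a, were tau-only (1.55 ± 0.42 (SE, edgeR FDR = 0.024) and 1.12 ± 0.18 (SE, edgeR FDR = 4.9e-04)). C1qa and C1qc were tau-larger and C1qb tau-only, with means of 4338 CPM with tau fibrils, 1366 with vehicle, 10876 in IkbkbCA and 6241 in IkbkbWT for C1qa. Aoah, which deacylates bacterial lipopolysaccharide, was the leading tau-larger gene at 52.3, 38.0, 61.9 and 58.8 CPM with tau fibrils, 1.75, 0, 0 and 0.544 with vehicle, 42.1, 53.5, 53.9, 51.6 and 43.7 in IkbkbCA and 18.4, 23.1, 19.9, 13.8 and 9.47 in IkbkbWT. Its tau and IkbkbCA levels overlap, it rose at least 38.8-fold with tau and 2.92-fold in IkbkbCA, and the fitted difference was 5.43 ± 0.60 (SE, edgeR FDR = 7.2e-06).

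Actin and adhesion genes were the list with the largest number of tau-only members, 16 of 36 tested. With tau 19 rose and 7 fell, in IkbkbCA 4 rose and 4 fell, and the difference was positive for 15 and negative for 5. Of all genes 5.36% were tau-only, 5.86% had a positive and 3.55% a negative difference, and 6.01% rose and 5.17% fell in IkbkbCA. The shares of all genes that rose and fell with tau were 10.6% and 10.6%. By limma-voom 4 actin genes fell with tau and 3 differences were negative. Of the Arp2/3 complex, which nucleates branched actin, Arpc1b, Arpc2, Arpc3, Arpc5 and Actr3 were tau-only, with differences of 0.77, 0.58, 1.1, 0.49 and 0.54, and Actr2 was shared. Coro1a, a coronin of leukocytes, had the largest positive difference (1.5 ± 0.28 (SE, edgeR FDR = 0.0017), means 99.7 CPM with tau fibrils, 36.1 with vehicle, 117 in IkbkbCA and 117 in IkbkbWT), and Was, the activator of Arp2/3 in blood cells, one of 1.07 ± 0.25 (SE, edgeR FDR = 0.011). Afap1l2, an adaptor of actin filaments, and Lsp1, an actin-binding leukocyte protein, fell with tau, with differences of -2.59 ± 0.47 (SE, edgeR FDR = 0.0013) and -2.50 ± 0.68 (SE, edgeR FDR = 0.024), the latter not called with limma-voom or without tau fibrils replicate 2 or without tau fibrils replicate 3 or without tau fibrils replicate 4, where it was -2.50 to -2.13. Marcksl1 rose in IkbkbCA alone (-1.84 ± 0.27 (SE, edgeR FDR = 1.9e-04)). The 15 microglial defining markers had a median tau effect of 1.01 and a median IkbkbCA effect of 0.19. With the summed markers of other cell types as a covariate 428 of the 688 tau-only genes kept their class, against 128 of 137 tau-larger ones. Of the genes described here, Actr3, Atp5j, Aurka, C1qc, Ccnb1, Clec4d, Cxcl9, Fam198b, Fasn, Hk3, Ifngr2, Map1lc3a, Nusap1, Plk2 and Stat2 then had no called difference. The part of cell composition in the remaining effects was not tested.

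Tau-only falls were led by Grm5, Fam198b, Lsp1 and Afap1l2. Grm5, the metabotropic glutamate receptor 5, lay at 5.18, 9.06, 4.56 and 6.64 CPM with tau fibrils, 30.9, 23.2, 25.6 and 19.1 with vehicle, 12.5, 8.95, 7.08, 12.0 and 10.3 in IkbkbCA and 3.47, 5.37, 8.30, 9.62 and 8.78 in IkbkbWT (difference -2.46 ± 0.40 (SE, edgeR FDR = 5.0e-04)). Fam198b, a Golgi protein, had -2.60 ± 0.77 (SE, edgeR FDR = 0.038), not called with limma-voom and in 11 of the 18 fits that left out 1 library, where it was -2.79 to -2.2. Genes of cholesterol synthesis fell with tau. Of 19 tested, 8 fell with tau (10.6% of all genes), 3 had a negative difference (3.55%) and 0 were called in IkbkbCA by edgeR, DESeq2 or limma-voom, with 1 at an unadjusted p under 0.05. At 6.01% higher and 5.17% lower over all genes, 0 of 19 in IkbkbCA is near the background. With the 3 sets as a covariate 13 fell with tau and 8 differences were negative. The negative differences included those of Hmgcs1, the hydroxymethylglutaryl-CoA synthase (-0.94 ± 0.24 (SE, edgeR FDR = 0.015)), and Mvd, the mevalonate decarboxylase (-0.95 ± 0.21 (SE, edgeR FDR = 0.0073)). Mvd lay at 35.7, 44.9, 44.8 and 32.7 CPM with tau fibrils, 70.7, 81.1, 64.6 and 64.8 with vehicle, 45.7, 39.1, 32.2, 36.8 and 35.6 in IkbkbCA and 27.8, 27.9, 42.3, 40.1 and 36.7 in IkbkbWT, and its tau and vehicle groups did not overlap. In all 19 genes vehicle exceeded IkbkbWT and tau exceeded IkbkbCA in the mean, so the tau-stimulated level remained the higher of the 2. The astrocyte sum moved the same way with tau as these genes did.

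Proliferation genes fell in both experiments. Of 36 genes of DNA replication and mitosis, 22 fell with tau, 9 fell and 1 rose in IkbkbCA, and the difference was negative for 5 (3 by limma-voom, 8 with the 3 sets as a covariate). Over all genes 10.6% fell with tau, 5.17% fell in IkbkbCA and 3.55% had a negative difference. Mki67, the proliferation antigen, had effects of -1.21 and -1.21, at 21.3, 14.2, 9.49 and 12.8 CPM with tau fibrils, 36.2, 27.5, 44.2 and 24.5 with vehicle, 21, 19.9, 27.6, 23.4 and 18.3 in IkbkbCA and 47.5, 47.5, 56.9, 47.1 and 56.4 in IkbkbWT. The interval of its difference was -0.48 to 0.47. Ccnb1 (cyclin B1), Aurka and Cdc20 were tau-only falls, and that of Ccnb1 (-1.14 ± 0.34 (SE, edgeR FDR = 0.041)) was not called with limma-voom, nor was that of Aurka, and was lost in 11 of the 18 fits that left out 1 library, where it was -1.18 to -0.86. Nusap1, a spindle protein, fell by 1.57 and 0.74 (difference -0.83 ± 0.22 (SE, edgeR FDR = 0.021), not called with limma-voom or without tau fibrils replicate 2 or without IkbkbWT replicate 1 or without IkbkbWT replicate 2, where it was -0.75 to -0.71), and Dkk2, a secreted Wnt modulator, by 2.14 and 0.84 (-1.30 ± 0.32 (SE, edgeR FDR = 0.013)). Ccnd1 (cyclin D1), the cyclin of entry into the cycle, went the other way in IkbkbCA. It lay at 614, 631, 526 and 612 CPM with tau fibrils, 917, 907, 914 and 758 with vehicle, 999, 998, 975, 1013 and 1089.6 in IkbkbCA and 543, 536, 629.7, 484 and 526 in IkbkbWT, with no overlap in either pair (difference -1.45 ± 0.13 (SE, edgeR FDR = 5.0e-07)). Shared falls beyond the cycle were led by Hes1, the Notch target (-2.19 and -1.72), Asb10 (-2.02 and -1.64), Itgb3, an integrin chain (-1.91 and -1.78), and Mamdc2 (-2.09 and -1.65).

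Active IKKβ exceeded tau in a small set. Acod1, the enzyme that makes itaconate, lay at 148, 150.3, 224, 149.6 and 161 CPM in IkbkbCA and 1.98, 2.27, 3.86, 0.995 and 2.2 in IkbkbWT, and at 48.9, 45.3, 64.2 and 43.4 CPM with tau fibrils and 4.67, 4.55, 3.80 and 4.36 with vehicle. It led the 7 CA-larger risers, with every IkbkbCA library above every tau library and a difference of -2.68 ± 0.37 (SE, edgeR FDR = 8.3e-05). Clec4d, a C-type lectin of myeloid cells, rose by 1.41 and 2.83 (-1.42 ± 0.36 (SE, edgeR FDR = 0.016)), with IkbkbCA replicate 3 the high value, and Gpr84, a receptor of medium-chain fatty acids, by 2.74 and 3.74 (-1.0 ± 0.25 (SE, edgeR FDR = 0.016), not called with limma-voom). Ednrb, the endothelin B receptor, led the 3 CA-larger falls at 47.4, 46.9, 23.3, 29.6 and 40.1 CPM in IkbkbCA, 254, 278, 273, 234 and 179.8 in IkbkbWT, 175, 169, 189.8 and 192 with tau fibrils and 295, 254, 317 and 219 with vehicle (2.12 ± 0.25 (SE, edgeR FDR = 1.4e-05)). Palld, an actin scaffold, fell by 0.91 and 2.42 (1.51 ± 0.22 (SE, edgeR FDR = 1.8e-04)).

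CA-only risers included p53 targets. Of 19 tested, 8 rose and 1 fell in IkbkbCA and 2 rose and 4 fell with tau, and the difference was negative for 10 (background 3.55%) and positive for 1. Over all genes 6.01% rose and 5.17% fell in IkbkbCA, 10.6% rose and 10.6% fell with tau, and 5.86% had a positive difference. The fall in IkbkbCA, the rises with tau and the positive difference are thus near the background. Phlda3, an Akt inhibitor, had means of 57.6 CPM with tau fibrils, 81.7 with vehicle, 236 in IkbkbCA and 74.9 in IkbkbWT and a difference of -2.17 ± 0.33 (SE, edgeR FDR = 2.4e-04). Ccng1 (cyclin G1), Zmat3, Mdm2, the ubiquitin ligase that degrades p53, and Pmaip1 (Noxa) were CA-only with differences of -1.18, -1.04, -0.74 and -1.28, the last not called with limma-voom. Trp53inp1 was opposite (-1.92 ± 0.23 (SE, edgeR FDR = 1.7e-05)), and Cdkn1a (p21), the cell cycle inhibitor, rose in both but more in IkbkbCA, at 636, 754, 714, 672 and 653 CPM against 249, 272, 366, 257 and 216 in IkbkbWT and 619.9, 662, 588 and 598 against 411, 435, 418 and 392 with vehicle (-0.76 ± 0.17 (SE, edgeR FDR = 0.0057)). Eda2r, a receptor of the TNF receptor family, Gtse1, a gene of the G2 phase, and the kinase Plk2 were tau-only falls, with tau effects of -1.59, -2.01 and -0.63. Sesn1 was the positive one (1.27 ± 0.22 (SE, edgeR FDR = 8.1e-04)).

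The 4 leading CA-only risers were Ass1, S100a4, Gng11 and Htr2b. Ass1, the argininosuccinate synthase, lay at 10.6, 15.4, 25.2, 13.2 and 8.03 CPM in IkbkbCA and 0.331, 0.413, 1.54, 0 and 0.347 in IkbkbWT, and at 6.33, 11.2, 12.1 and 11.2 CPM with tau fibrils and 4.67, 4.35, 8.07 and 5.44 with vehicle (-3.90 ± 0.67 (SE, edgeR FDR = 7.9e-04)). Its level with vehicle was above that of every IkbkbWT library. S100a4, a calcium-binding protein, lay at 82.8, 74.4, 609, 172 and 162 CPM in IkbkbCA, 20.0, 21.7, 38.8, 41.5 and 36.5 in IkbkbWT, 229, 297, 234 and 273 with tau fibrils and 354, 488, 334 and 393 with vehicle (-3.40 ± 0.62 (SE, edgeR FDR = 0.0015)), so both tau experiment groups exceeded 4 of the 5 IkbkbCA libraries. Gng11, a G protein subunit, had -3.16 ± 0.70 (SE, edgeR FDR = 0.0062), not called with limma-voom, and Htr2b, the serotonin 2B receptor, -2.21 ± 0.42 (SE, edgeR FDR = 0.0018). With the 3 sets as a covariate the tau effects of Ass1 (edgeR FDR = 0.039), S100a4 (edgeR FDR = 0.023) and Htr2b (edgeR FDR = 0.047) were called as well, so that these genes were not CA-only in that fit. Traf3, the adaptor that restrains the non-canonical NF-κB pathway and whose promoter is printed above, rose by 1.02 in IkbkbCA and changed by -0.03 with tau (-1.05 ± 0.23 (SE, edgeR FDR = 0.0065)). Slc2a1 (GLUT1) and Cxcr4 were further CA-only risers (-1.18 ± 0.27 (SE, edgeR FDR = 0.0085) and -1.16 ± 0.25 (SE, edgeR FDR = 0.0058)), and Pdgfa, a growth factor, had -1.32 ± 0.21 (SE, edgeR FDR = 3.3e-04).

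Markers of border-associated macrophages, which line the meninges and vessels, fell in IkbkbCA in 7 of 9 tested (background 5.17%) and rose in 1 (background 6.01%). With tau 3 rose, and 4 differences were positive, against 10.6% and 5.86% of all genes. Mrc1, the mannose receptor CD206, lay at 289.9, 251, 200.8, 329 and 317 CPM in IkbkbCA and 1321, 1207, 980.2, 1163 and 1139 in IkbkbWT, and at 16.1, 16.8, 19.0 and 17.4 CPM with tau fibrils and 13.4, 21.3, 7.12 and 14.7 with vehicle (2.30 ± 0.29 (SE, edgeR FDR = 3.4e-05)). Every library of the tau experiment lay below every Ikbkb library. Lyve1, the hyaluronan receptor, had means of 0 CPM with tau fibrils, 0.146 with vehicle, 1.86 in IkbkbCA and 42.6 in IkbkbWT and no called difference (edgeR FDR = 0.92). Cbr2 and Stab1, a carbonyl reductase and a scavenger receptor, were opposite, Stab1 at 459, 481, 522, 434 and 394 CPM in IkbkbCA, 1986, 1910.2, 1219, 1897 and 1614 in IkbkbWT, 186, 195, 194 and 175 with tau fibrils and 109.8, 85.1, 124 and 117 with vehicle (2.70 ± 0.20 (SE, edgeR FDR = 2.0e-08)). The 10 listed markers summed to 1779 to 2405 CPM in IkbkbCA, 3221 to 4543 in IkbkbWT, 1117 to 1306 with tau fibrils and 359 to 469 with vehicle. Ccr1, a chemokine receptor, led the 108 CA-only falls at 3.98, 7.79, 4.29, 7.11 and 6.52 CPM in IkbkbCA and 51.8, 41.1, 62.7, 64.7 and 48.5 in IkbkbWT, with 2.30, 0.863, 1.14 and 0.511 with tau fibrils and 0, 1.66, 2.37 and 0.544 with vehicle (3.01 ± 0.73 (SE, edgeR FDR = 0.012)), not called without tau fibrils replicate 1, where it was 2.61. At no more than 2.37 CPM in the tau experiment, Ccr1 left little room to see a fall with tau. Egfl7, a secreted EGF-like protein, and Gpr160, an orphan receptor, had 2.60 ± 0.53 (SE, edgeR FDR = 0.0034) and 2.53 ± 0.59 (SE, edgeR FDR = 0.0091). Fcrls, Cd36 and Ccl6, a microglial Fc receptor-like gene, a fatty acid receptor and a chemokine, fell in IkbkbCA by 1.90, 1.76 and 1.34 and changed with tau by 0.16, -0.21 and 0.05.

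Opposite genes that rose with tau and fell in IkbkbCA were led by Clec4a3, a further Dcir family receptor, at 52.3, 53.5, 65.3 and 85.9 CPM with tau fibrils, 2.34, 3.73, 4.75 and 3.27 with vehicle, 16.3, 15.4, 16.6, 15.1 and 12.0 in IkbkbCA and 26, 23.9, 21.2, 28.4 and 24.1 in IkbkbWT (4.86 ± 0.27 (SE, edgeR FDR = 4.4e-10)). Cd38, an NAD-consuming ectoenzyme, lay at 9.20, 9.92, 7.21 and 7.16 CPM with tau fibrils and 1.17, 0.621, 2.85 and 0.544 with vehicle, but at 83.1, 67.2, 60.0, 63.6 and 58.2 CPM in IkbkbCA and 169, 199.6, 184, 140.4 and 118 in IkbkbWT (4.09 ± 0.42 (SE, edgeR FDR = 2.3e-06)). Its direction was thus opposite while every Ikbkb library stayed far above the tau experiment. Igfbp4, which binds insulin-like growth factors, lay at 167, 154, 202 and 179 CPM with tau fibrils, 48.5, 32.5, 34.7 and 37.0 with vehicle, 227, 227, 249, 237 and 236 in IkbkbCA and 426, 423, 444, 425 and 344 in IkbkbWT (3.03 ± 0.17 (SE, edgeR FDR = 4.4e-10)), and Tfec, a transcription factor of the MiT family, had 3.28 ± 0.37 (SE, edgeR FDR = 7.3e-06). Cx3cr1, the fractalkine receptor, lay at 3163, 3561, 3102 and 2894 CPM with tau fibrils, 1496, 2004, 1439 and 1376 with vehicle, 1257, 1323, 1178, 1131 and 1133 in IkbkbCA and 2005, 1970.1, 1619, 1765 and 1529 in IkbkbWT (1.57 ± 0.17 (SE, edgeR FDR = 3.5e-06)). Because Cre replaces 1 copy of this gene in IkbkbCA, its fall there cannot be told apart from the knock-in. The reverse pattern, a fall with tau and a rise in IkbkbCA, was led by Psrc1, a spindle protein, at 10.9, 10.4, 11.4 and 13.3 CPM with tau fibrils, 23.9, 33.7, 33.2 and 24.0 with vehicle, 21.1, 22.4, 13.2, 22.3 and 21.1 in IkbkbCA and 5.79, 6.60, 9.27, 7.13 and 7.97 in IkbkbWT (-2.78 ± 0.28 (SE, edgeR FDR = 1.8e-06)). Rgs16, a brake on G protein signals (-2.51 ± 0.26 (SE, edgeR FDR = 2.1e-06)), and Zfp503, a zinc finger protein (-2.05 ± 0.26 (SE, edgeR FDR = 3.1e-05)), followed, and the AP-1 factor Maff had -1.81 ± 0.26 (SE, edgeR FDR = 1.4e-04).

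Microglial state lists held members that moved either way. Of 27 disease-associated microglia genes, which rise around plaques and in degeneration, 6 rose and 5 fell with tau, 7 rose and 4 fell in IkbkbCA, and 2 differences were positive and 6 negative. Over all genes 10.6% rose and 10.6% fell with tau, 6.01% rose and 5.17% fell in IkbkbCA, and 5.86% and 3.55% had a positive and a negative difference, so the positive differences are near the background. Cst7 rose by 2.14 and 1.76 (difference 0.38 ± 0.71 (SE, edgeR FDR = 0.79)), with 300.8, 318, 258, 196 and 179 CPM in IkbkbCA, 85.7, 81.5, 166, 16.7 and 21 in IkbkbWT, 39.1, 48.3, 42.1 and 32.2 with tau fibrils and 6.42, 10.8, 9.02 and 9.26 with vehicle. Cd9, a tetraspanin, fell with tau alone (-1.36 ± 0.29 (SE, edgeR FDR = 0.0048)), and Spp1 (osteopontin) fell in both and further with tau (-0.70 ± 0.21 (SE, edgeR FDR = 0.04)). Gpnmb, a lysosomal glycoprotein, fell by 0.49 with tau and rose by 0.38 in IkbkbCA (-0.87 ± 0.17 (SE, edgeR FDR = 0.0029)). Of 22 homeostatic genes, 7 rose and 2 fell with tau, 4 rose and 3 fell in IkbkbCA, and 5 differences were positive. Tmem119 rose in both (2.2 and 1.61), P2ry12 was called in neither (in IkbkbCA with the 3 sets as a covariate, edgeR FDR = 0.034), and Csf1r and P2ry6 were tau-only (0.98 ± 0.20 (SE, edgeR FDR = 0.0029) and 1.45 ± 0.28 (SE, edgeR FDR = 0.0023)). Aif1, the marker IBA1, was tau-larger at 1160.4, 1371, 1337 and 959 CPM with tau fibrils, 116, 191, 109 and 156 with vehicle, 3039, 2871, 1205, 2124 and 2043 in IkbkbCA and 1345, 1231, 933, 776 and 771 in IkbkbWT (1.91 ± 0.33 (SE, edgeR FDR = 9.0e-04)).

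Genes of growth factors and chemokine receptors were split. Of 19 genes, 9 rose and 2 fell with tau, 6 rose and 2 fell in IkbkbCA, and 8 differences were positive and 3 negative. The falls with tau are at the background of 10.6%, and 10.6% of all genes rose with tau. In IkbkbCA 6.01% of all genes rose and 5.17% fell, while 5.86% had a positive and 3.55% a negative difference. Il10ra and Tgfb1, the interleukin-10 receptor and transforming growth factor β1, were tau-only (1.51 ± 0.26 (SE, edgeR FDR = 7.8e-04) and 1.49 ± 0.30 (SE, edgeR FDR = 0.0034)), though with the 3 sets as a covariate Il10ra was called in IkbkbCA (edgeR FDR = 0.023). Of 20 matrix genes tested, 3 rose and 4 fell with tau, 7 rose and 1 fell in IkbkbCA, and 3 differences were negative, Vcan and Plau among them (Vcan, a proteoglycan, -1.19 ± 0.31 (SE, edgeR FDR = 0.018), not called without tau fibrils replicate 3, where it was -1.08). Over all genes 10.6% rose and 10.6% fell with tau, 6.01% rose and 5.17% fell in IkbkbCA, and 3.55% had a negative difference. The rises of matrix genes with tau and the fall in IkbkbCA are near the background. Of 30 lysosomal genes 8 rose with tau, 4 rose and 2 fell in IkbkbCA, and 3 differences were positive (9 with the 3 sets as a covariate), against 10.6%, 6.01%, 5.17% and 5.86% of all genes, so the falls in IkbkbCA are near the background. The largest was that of Ctsc (cathepsin C), 1.31 ± 0.20 (SE, edgeR FDR = 2.3e-04). Of 22 oxidative and iron response genes 9 rose and 1 fell with tau and 11 rose in IkbkbCA, against 10.6%, 10.6% and 6.01% of all genes. The NADPH oxidase subunits Ncf1 and Cyba were tau-larger (0.99 ± 0.23 (SE, edgeR FDR = 0.01) and 0.89 ± 0.15 (SE, edgeR FDR = 7.8e-04)). In lipid efflux, 15 genes, Abca1, the cholesterol exporter, was tau-only (1.09 ± 0.17 (SE, edgeR FDR = 3.6e-04)) and 1 of 3 called differences, with Cd36 and Fasn, the latter not called with limma-voom. Over all genes 9.42% had a called difference in either direction. Counts of called differences near or under that share were those of autophagy, oxidative phosphorylation, kinases, glycolysis and AP-1 factors. The effects themselves could still be called. Of the 15 glycolysis genes 6 rose in IkbkbCA and 2 with tau, against 6.01% and 10.6% of all genes. Autophagy (24 genes), oxidative phosphorylation (33) and IKK and upstream kinases (9) had 1 called difference each, in Map1lc3a, Atp5j and Map3k7. That of Map1lc3a was not called with limma-voom and in 15 of the 18 fits that left out 1 library, where it was -0.53 to -0.41, that of Atp5j was not called in 13 of the 18 fits that left out 1 library, where it was -1.21 to -0.69, and that of Map3k7 was not called in 8 of the 18 fits that left out 1 library, where it was -0.62 to -0.44. Glycolysis (15) had 2, Slc2a1 and Hk3, the latter not called with limma-voom and in 13 of the 18 fits that left out 1 library, where it was 0.88 to 1.08. AP-1 factors (20) had 2, Maff and Batf (2.52 ± 0.64 (SE, edgeR FDR = 0.016), not called without tau fibrils replicate 3 or without vehicle replicate 2, where it was 2.13 to 2.21). The heat shock and unfolded protein response (25) had 7, with Chac1 (-2.18 ± 0.62 (SE, edgeR FDR = 0.029), not called without tau fibrils replicate 3 or without tau fibrils replicate 4 or without vehicle replicate 2, where it was -2.01 to -1.96) and Herpud1 (0.99 ± 0.23 (SE, edgeR FDR = 0.0081)) named by size. MHC class II (7) and the NF-κB survival genes (12) had 0 called differences in edgeR, DESeq2 or limma-voom, and 0 at an unadjusted p under 0.05. With 9.42% called over all genes, 0 of 7 and 0 of 12 are near the background. Of the 7 class II genes 3 rose with tau and 3 in IkbkbCA, against 10.6% and 6.01% of all genes. Among the 12 survival genes 5 rose with tau, and 4 rose and 1 fell in IkbkbCA.

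**Figure D4:**
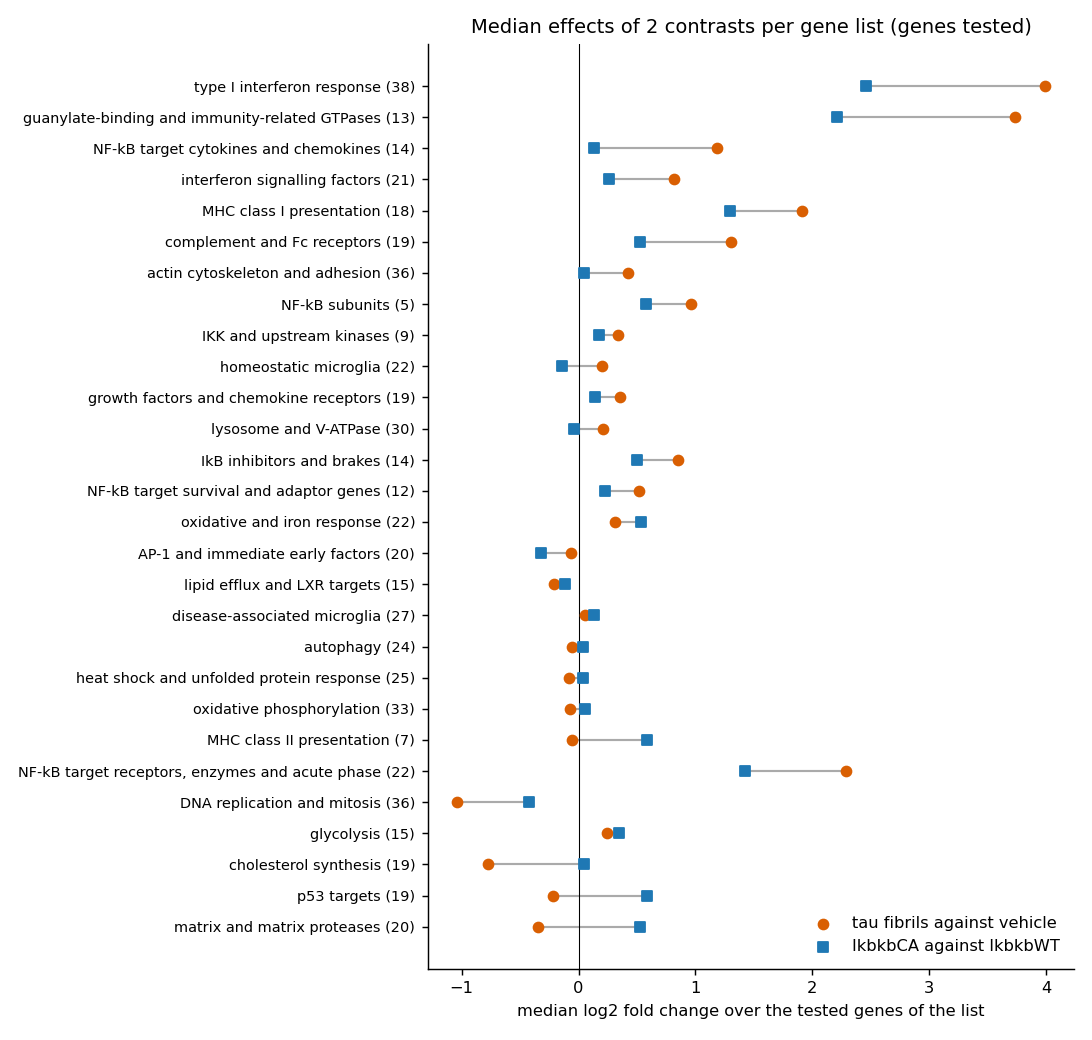
Each row is 1 of 28 gene lists with its number of genes tested, and the horizontal axis is the median log2 fold change over those genes, with circles for tau fibrils against vehicle and squares for IkbkbCA against IkbkbWT, sorted by the median difference. The interferon and GTPase lists lie farthest to the right for both, and cholesterol synthesis, p53 targets and matrix genes are among those with medians of opposite sign. For the NF-κB receptors and enzymes the tau median of 2.29 exceeds the IkbkbCA median of 1.42 while the median of the differences is -0.43.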

How the data were processed

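The labels give 3′ mRNA libraries (QuantSeq FWD) and, per the study's methods, the authors mapped reads to GRCm38 on the BlueBee platform (Lexogen QuantSeq 2.2.3). The deposited values are raw counts per Ensembl gene, 1 table per library, not normalised. The study's methods name RSEM for its counts, after the STAR mapping of the cortical samples. They do not say whether this covers the present libraries. The values are whole numbers with closing lines for reads outside genes and ambiguous reads, so the counter used for them is not certain. Lines that name no gene were left out of totals, and the share of reads outside genes was 16.3 to 22.2% with tau fibrils, 23.3 to 29.1% with vehicle, 12.4 to 14.0% in IkbkbCA and 15.9 to 18.7% in IkbkbWT. Symbols and coordinates are from GENCODE M21 (47224 of 47643 genes).

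The 18 libraries were fitted together in edgeR 4.0.16 (R 4.3.3) with TMM scaling, filterByExpr (minimum count 10, minimum total 15), group means and quasi-likelihood tests of 3 contrasts, with Benjamini-Hochberg adjustment over all 12841 genes. Standard errors are the absolute log2 fold change divided by the square root of F. Bounds on folds use a floor of 3 counts per library in groups at or under it, and cover counting error only. Named genes were a panel of 27, the leading genes of each class by size of the difference (or, for shared genes, of the smaller effect) with groups that do not overlap and a mean of at least 10 CPM, and the 2 largest called differences of each list. A few genes met by this rule are not reported here. Other list members given with values were chosen after their values were seen. The members, lists and panel were chosen with earlier results of these data known. Data were simulated with independent libraries and the dispersions fitted here, so they carry no such deviations as single libraries showed above. Of 394 changed genes 51.5% were recovered (6.12% at 1.5-fold, 32.3% at 2-fold, 79.8% at 4-fold), and 4.25% of calls were false. The tau-only class was assigned rightly in 48.98%. Whether these shares hold for libraries that deviate together in sets, as the Ikbkb libraries did, was not tested. DESeq2 1.42.0 and limma 3.58.1 were alternatives. Promoters are from RefSeq. No library pair within a group was identical.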

Additional observations from a re-analysis of the deposited data

Results flagged for a closer look

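In 41 of 393 checks of a named gene within a group of 4 or 5 libraries, 1 library lay far from the others, by a gap that chance gives in about 1 in 20 groups. IkbkbCA replicate 3 held 20 of the 41. IkbkbCA replicate 3 was the highest library of its group for Acod1 (224 CPM against 148 to 161), Ccl9 (279 CPM against 71.2 to 116), Clec4d (796 CPM against 240.2 to 348), Cxcl13 (50.9 CPM against 2.09 to 10.6), Gng11 (38.6 CPM against 8.76 to 14.9) and Herpud1 (131 CPM against 84.5 to 95). IkbkbCA replicate 3 was the highest library of its group for Marco (1107 CPM against 12.1 to 36.1), Nfkbia (1317 CPM against 799.9 to 934), S100a4 (609 CPM against 74.4 to 172), Saa3 (25068 CPM against 926 to 1781), Slc13a3 (5.59 CPM against 0.346 to 1.39) and Slc2a1 (149 CPM against 71.8 to 79.3). IkbkbCA replicate 3 was the highest library of its group for Tnf (60.2 CPM against 20.4 to 27.6) and Traf1 (9.13 CPM against 1.36 to 2.51). IkbkbCA replicate 3 was the lowest library of its group for Ccl3 (103 CPM against 172 to 197), Fcer1g (843 CPM against 984 to 1042), Gbp9 (4.10 CPM against 14.7 to 17.8), Irf7 (74.4 CPM against 294 to 353), P2ry12 (31.3 CPM against 75.4 to 88.8) and Psrc1 (13.2 CPM against 21.1 to 22.4). IkbkbCA replicate 5 was the highest library of its group for Afap1l2 (10.8 CPM against 5.02 to 6.27) and Atp5j (149 CPM against 126 to 132). IkbkbCA replicate 5 was the lowest library of its group for H2-Q6 (4.26 CPM against 7.46 to 8.31). IkbkbWT replicate 2 was the highest library of its group for Ikbkb (59.4 CPM against 41.3 to 46.3). IkbkbWT replicate 3 was the highest library of its group for C3 (31.1 CPM against 6.28 to 7.43), Clec4d (73.2 CPM against 48.6 to 55.1), Ifit1 (12.9 CPM against 3.0 to 4.75), Nusap1 (40.3 CPM against 29.7 to 31.8) and Slc1a3 (53.3 CPM against 12.1 to 22.9). IkbkbWT replicate 3 was the lowest library of its group for Clec4a1 (8.49 CPM against 17.6 to 18.7). IkbkbWT replicate 4 was the highest library of its group for Batf (12.1 CPM against 6.56 to 7.64). IkbkbWT replicate 5 was the lowest library of its group for Igfbp4 (344 CPM against 423 to 444). Tau fibrils replicate 1 was the lowest library of its group for Ass1 (6.33 CPM against 11.2 to 12.1) and Nfkbia (591 CPM against 647 to 658). Tau fibrils replicate 3 was the highest library of its group for Tfec (17.1 CPM against 9.78 to 10.7). Vehicle replicate 2 was the highest library of its group for Fcrls (659 CPM against 504 to 515). Vehicle replicate 4 was the highest library of its group for Atp5j (131 CPM against 40.3 to 52.7), Ifit1 (11.4 CPM against 4.09 to 4.75) and Slc2a1 (34.8 CPM against 28.0 to 29.2). Vehicle replicate 4 was the lowest library of its group for Ccl5 (24.5 CPM against 48.4 to 53.1) and Ccnd1 (758 CPM against 907 to 917).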

How the results depend on the processing

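No paired analysis was possible because the labels number no replicates, and the numbers used here name the libraries in the order of deposit. Against a 1.5-fold threshold (glmTreat) 644 genes were called in the tau effect, 381 in IkbkbCA and 260 in the difference (208 positive, 52 negative), with 134 tau-only, 33 tau-larger, 174 shared, 1 CA-larger, 37 CA-only and 6 opposite genes. DESeq2 gave 17 CA-larger genes. The set alternatives that follow were chosen after seeing the data. With the 3 sets as a covariate there were 2179 called differences (1107 negative), 1334 tau-only, 29 CA-larger, 309 CA-only and 178 opposite genes. With replicates 1 and 2 of the Ikbkb groups alone there were 813 negative differences, 16 CA-larger and 209 opposite genes. With replicates 4 and 5 alone, 853 genes were called in IkbkbCA, with 17 CA-larger and 120 CA-only genes, and without replicate 3 of both groups there were 16 CA-larger genes. The difference of Marco was 3.37, 2.03 and 2.58 in these 3 subsets, and that of Cst7 was -1.12 with replicates 4 and 5.

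Leaving out 1 library at a time gave 2005 to 2799 calls in the tau effect, 1161 to 1502 in IkbkbCA and 946 to 1349 in the difference, 618 to 914 positive and 249 to 551 negative. The lowest count of negative differences, 249, was without tau fibrils replicate 3, and it was 252 without IkbkbWT replicate 2, 287 without IkbkbWT replicate 1 and 291 without tau fibrils replicate 4. Classes ranged over 516 to 770 tau-only, 126 to 167 tau-larger, 380 to 476 shared, 6 to 15 CA-larger, 140 to 212 CA-only and 66 to 100 opposite genes. The difference of Marco was -0.998 to 2.68. The share of higher calls in the tau effect was 62.6% without the filter, 70.3% without tau fibrils replicate 3 and 69.3% without tau fibrils replicate 4. Over all alternatives, 3319 of 3654 values of named genes kept direction and side of the threshold, 231 fell short of it and 26 newly passed. The other 78 had the opposite sign, in 10 genes whose difference was not called with all libraries, and in 5 of the 78 (Marco and Cst7) the difference was then called. In addition, 37 of 1224 list medians had the other sign. The cause of these changes was not tested. Counts of 3 or fewer in a group limit Oas2, Aoah, Ly6i, Cxcl13, Cbr2 and H2-Q6 to bounds.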

Other observations

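The Clec4 genes on chromosome 6, C-type lectin receptors of myeloid cells, fell into different classes although they are neighbours, a pattern chosen after its values were seen. Clec4a1 (chr6:122921848-122934619, GRCm38, tau-only) had effects of 5.20 with tau and 0.30 in IkbkbCA, with a difference of 4.91 ± 0.32 (SE, edgeR FDR = 5.9e-09). Clec4a3 (chr6:122952515-122969875, GRCm38, opposite) had effects of 4.15 with tau and -0.71 in IkbkbCA, with a difference of 4.86 ± 0.27 (SE, edgeR FDR = 4.4e-10). Clec4b1 (chr6:123049962-123071555, GRCm38, no class) had effects of 2.82 with tau and 0.44 in IkbkbCA, with a difference of 2.38 ± 1.05 (SE, edgeR FDR = 0.17). Clec4a2 (chr6:123106428-123143999, GRCm38, tau-only) had effects of 4.49 with tau and 0.27 in IkbkbCA, with a difference of 4.22 ± 0.33 (SE, edgeR FDR = 6.0e-08). Clec4n (chr6:123229843-123247021, GRCm38, tau-larger) had effects of 2.36 with tau and 1.02 in IkbkbCA, with a difference of 1.34 ± 0.19 (SE, edgeR FDR = 9.2e-05). Clec4d (chr6:123262111-123275265, GRCm38, CA-larger) had effects of 1.41 with tau and 2.83 in IkbkbCA, with a difference of -1.42 ± 0.36 (SE, edgeR FDR = 0.016). Clec4e (chr6:123281789-123289870, GRCm38, shared) had effects of 3.93 with tau and 4.59 in IkbkbCA, with a difference of -0.66 ± 1.26 (SE, edgeR FDR = 0.8). The Clec4a genes are near copies of each other, so reads may have been divided between them in counting. Each value comes from the same 18 libraries, in which tau and IkbkbCA share no control.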
